A study of Mus musculus with 3 samples.

Results

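The 3p arms of the mouse miRNAs numbered miR-6896 to miR-7093 are the strands cut from the 3′ side of a long run of hairpins that were annotated late and largely as mirtron-like. All miRNAs on the arrays with a number in that range and a name ending in -3p were taken, which gave 198 of the 1881 mouse miRNAs measured. The rule used names and numbers only and no measured value, although earlier results of these data were known when it was set. The 5p arms of the same numbers, 200 miRNAs, were read beside them.

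A miRNA is a short RNA that guides Argonaute proteins to matching sites in messenger RNAs, and its target choice rests mainly on its seed, bases 2 to 8 from the 5′ end. Most miRNAs are cut from their transcripts by the enzyme Drosha. A mirtron is a short intron that folds into a hairpin once the spliceosome has removed it, and so skips Drosha. Its 3p arm ends where the intron ends, at the 3′ splice site, an AG that follows a stretch rich in pyrimidines. In tailed mirtrons splicing sets only 1 end of the hairpin and the other end is trimmed.

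The RNA came from exosomes, small vesicles that cells release, collected from the culture medium of mesenchymal stem cells (MSCs), stromal cells of the bone marrow that adhere to plastic. The MSCs were grown from the marrow of male wild-type C57BL/6 mice aged 4 to 6 weeks and used at passages 3 to 6. The group N-Exo held exosomes of normoxic cells, H-Exo those of cells after 24 h of hypoxia, and H+G-Exo those of cells under hypoxia plus GW4869. GW4869 inhibits neutral sphingomyelinase, which takes part in the release of exosomes. With 1 one-colour array for each group there was no replicate check and no p-value. The submitters' design mentions 3 samples per exosome kind, and whether their RNA was pooled is not stated in the labels. The ± after a signal is the SD over a probe's replicate spots within an array, so it covers technical error only.

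The 3 arrays lay on 1 slide with 1 scan time. No spot was saturated (0 on each array). Of 8 miRNAs listed as mesenchymal or fibroblast markers, 8, 7 and 8 were detected in N-Exo, H-Exo and H+G-Exo, with summed unscaled signals of 126733, 31521 and 24906. The endothelial, epithelial, neuronal and liver miRNAs on the list were detected on none of the arrays, while 2, 2 and 3 of 6 blood cell miRNAs and 2, 1 and 2 of 3 muscle miRNAs were. The part of other cells in the results was not tested. Fewer vesicles of a kind and less miRNA per vesicle cannot be told apart on such arrays.

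RefSeq, on the GRCm38.p6 build, held a mature sequence for 174 of the 198 3p arms. The 9 below are the 8 with the highest mean of the log2 scaled signal, in that order, and miR-7036b-3p, the member with the largest difference in detection between the arrays. Capitals mark the seed, bases 2 to 8.
miR-7033-3p: uGCCUCCAuucucuugggcag
miR-6976-3p: aUCUCCCUcccaacuccccag
miR-7022-3p: aCAAGCCUgaccucugccccca
miR-7045-3p: uCUCCCCCcucccccgcacag
miR-6937-3p: uCACAGGUucccccuugcacuag
miR-7005-3p: cUGUGCCUgcuacccaucccuugca
miR-7046-3p: uGAACCACccaucccccuacag
miR-6897-3p: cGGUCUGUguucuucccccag
miR-7036b-3p: uUCCUGGUgggccucggggucc
These 9 seeds all differ. Over the 174 members with a sequence there were 167 different seeds, and 6 seeds were shared, by 13 members in all, of which 1 was detected on any array.

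For contrast, 3 undetected members are shown, the first by number with a 3′ end read by a probe that starts CTG.
miR-6899-3p: uUGUCCUUcugugucuucugcag
miR-6901-3p: gACCUUCUguguucuugcag
miR-6902-3p: cCAUGUGAuguguggguucag

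Most members ended as an intron does. Of the 174 mature sequences, 136 (78.2%) ended in AG and 118 (67.8%) in CAG. Among the 533 other mouse 3p arms in RefSeq, 10.9% ended in AG and 5.44% in CAG. The median share of pyrimidines was 71.7% in the members and 54.5% in the other 3p arms. A run of CCCC was present in 47 members (27.0%) and in 40 of the other 3p arms (7.50%). The start GU, which a 5′ splice site would give to the 5p arm, was present in 15 of 176 5p arms of the same numbers (8.52%) and in 4.22% of the 521 other 5p arms. All 174 placed members lay inside the span of a protein-coding gene, on 19 chromosomes. A gene on either strand was accepted, and no share for other miRNAs was set beside this. The RefSeq table used gives gene spans without exons, so an intron or exon was not assigned.

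A probe reads the complement of the 3′ end of its miRNA, and 363 of 363 member probes with a RefSeq sequence were the exact complement of that end. The 198 members were read by 412 probes, 182 members by 2 probes and 16 by 3, with 10 to 15 spots per probe. The probes that the results turn on are given 5′ to 3′, with capitals for a run of at least 4 G. The label changed member means only that miR-7005-3p passed the rule for a difference, given below, in H+G-Exo against H-Exo. Without scaling or on the spike-ins it fell short of 2-fold.
miR-7033-3p, largest reading: ctgcccaagagaatgg
miR-6976-3p: ctGGGGagttggg
miR-6976-3p, longer probe: ctGGGGagttggga
miR-7022-3p: tGGGGGcagaggt
miR-7045-3p: ctgtgcGGGGG
miR-6937-3p: ctagtgcaaGGGGG
miR-7005-3p, changed member: tgcaagggatgggt
miR-7080-3p, shorter probe: agggaacggaggg
miR-7080-3p, longer probe: agggaacggaGGGG
miR-7036b-3p, H+G-Exo only: ggaccccgaggc
miR-6899-3p, not detected: ctgcagaagacacaga
miR-6901-3p, not detected: ctgcaagaacacagaag

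The CAG end of the miRNA makes the probe start with CTG. Among the member probes 278 of 412 (67.5%) started with CTG, against 2.93% of the 410 probes of the 5p arms, 2.48% of the 3593 probes of other miRNAs and 8.58% of all 4415 miRNA probes. The run GGGG, read on the probe's own strand, was present in 84 member probes (20.4%), in 1.46% of the 5p arms' probes, in 3.40% of the other probes and in 4.80% of all. The run can follow the CTG at once or share its G, and 32 member probes (7.77%) started CTGGGG, against 4 of the 3593 other probes. G made up a median 42.9% of a member probe and 14.3% of a 5p arm's probe, and purines 73.3% and 33.3%.

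Few of the members were detected. Detection of a probe required the scanner software to mark over 50% of its spots as well above background, and a miRNA was detected if any probe was. By this rule 36 of 198 members (18.2%) were detected for N-Exo, 22 (11.1%) for H-Exo and 36 (18.2%) for H+G-Exo. Over all 1881 miRNAs the shares were 36.7%, 31.3% and 36.1%. Over the 587 other miRNAs named 3p they were 33.4%, 27.6% and 31.3%, and over the 5p arms of the same numbers 54.5%, 51.0% and 59.0%. The members were thus detected less often than each of these sets on every array, a description without a test.

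The members in H-Exo were a subset of those on the other arrays. Of the 198, 22 were detected on all 3 arrays, 9 in N-Exo and H+G-Exo, 5 in N-Exo alone, 5 in H+G-Exo alone and 157 on none. None was detected in H-Exo without N-Exo or H+G-Exo (0 members each). All miRNAs leaned the same way, counted on the brightest probe of each. Of all 1881, 4 were detected in H-Exo and not N-Exo, and 103 the reverse (members 0 and 12). In H-Exo and not H+G-Exo there were 20, and 109 the reverse (members 0 and 14). Many calls lay near the threshold. The best probe of 9 members for N-Exo, 2 for H-Exo and 5 for H+G-Exo had over 50% and up to 70% of its spots well above background, and that of 8, 2 and 7 members over 30% and up to 50%. The software's own call per miRNA, which uses another rule, detected 53, 42 and 56 members.

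The signals were low. Before scaling, the median background-subtracted signal of the detected members was 32.8 for N-Exo, 36.5 for H-Exo and 33.9 for H+G-Exo, and over all detected miRNAs it was 99.9, 84.4 and 102. The undetected members had medians of -0.117, -0.271 and -0.189, where 1000 negative control spots per array had medians of -0.139, 0.678 and 0.834. The detected members held 0.213%, 0.221% and 0.223% of the signal of the detected miRNAs, while they were 5.22%, 3.74% and 5.30% of those miRNAs in number.

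**Figure D1:**
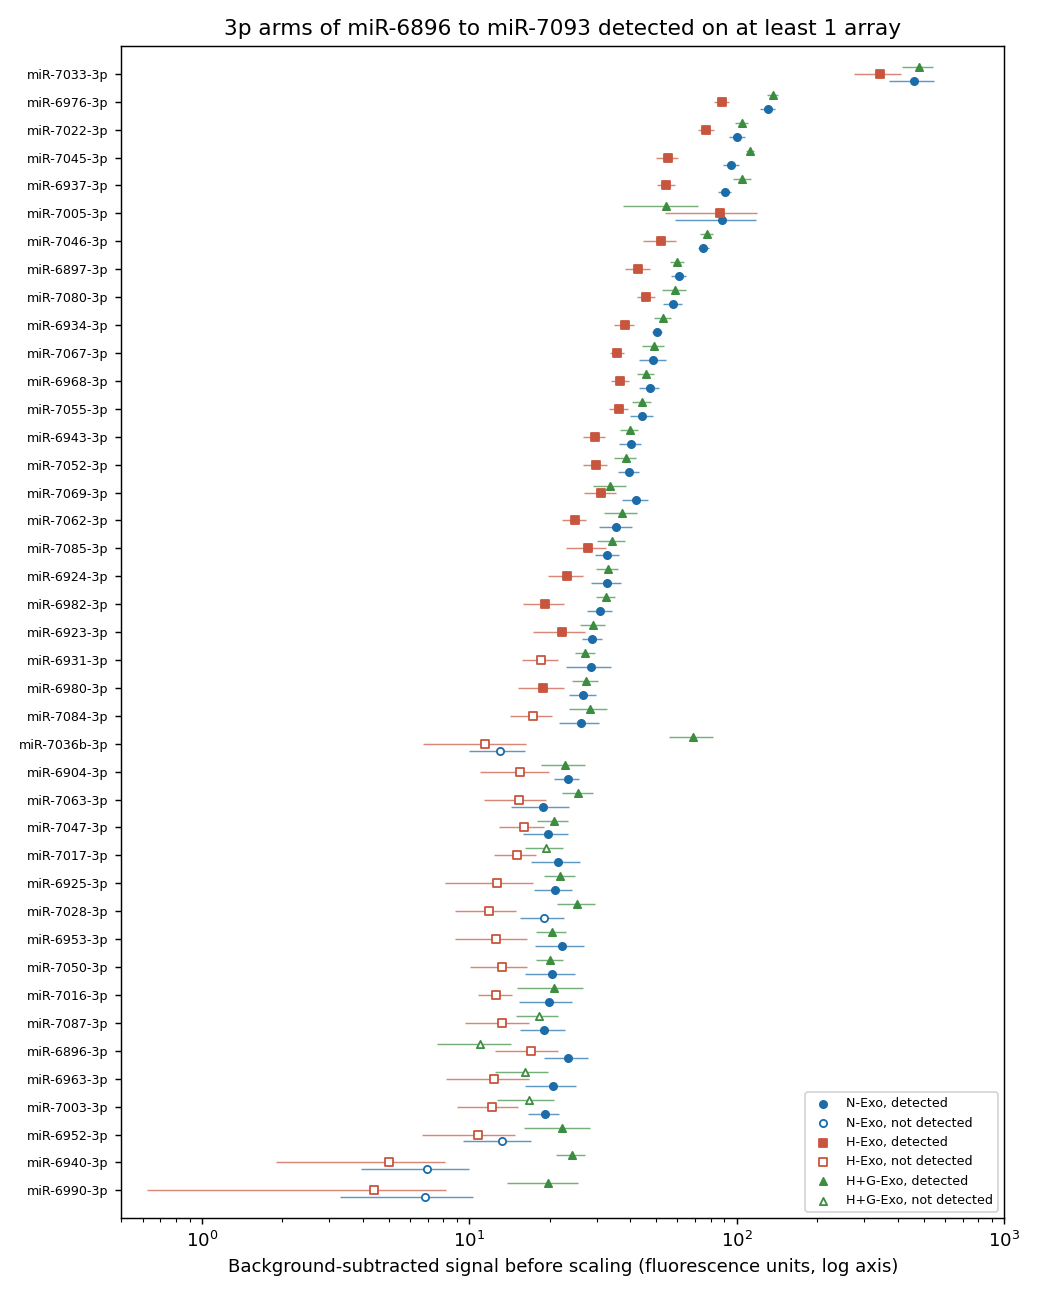
Unscaled signal (log axis, fluorescence units) of the 41 members detected on at least 1 array, with the SD over spots as bars; filled symbols are detected and open ones are not. miR-7033-3p stands at 461, 343 and 480, the H-Exo symbols lie to the left for nearly all members, and miR-7036b-3p stands out in H+G-Exo. A member can be detected by a probe other than the brightest, which is the one drawn.

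miR-7033-3p gave the largest reading of the members on every array, although readings of different probes are not a measure of relative amount. It lies at chr5:135383730-135383750 on the minus strand, inside the span of Pom121, a gene of a nuclear pore protein. Its signal before scaling was 461 ± 88.0 for N-Exo, 343 ± 68.5 for H-Exo and 480 ± 63.6 for H+G-Exo, with 15 spots on each. H-Exo was the lowest of these, and single spots overlapped across the arrays (322 to 589, 251 to 444 and 381 to 553). It was the 1 member whose scaled signal reached the array's 75th percentile, on each array. No probe of it has a run of 4 G, and with miR-7005-3p it was 1 of 2 such members detected on all arrays.

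miR-6976-3p lies at chr17:46553827-46553847 on the minus strand, inside the span of Srf, the gene of serum response factor. It gave 131 ± 8.61 for N-Exo, 87.9 ± 5.92 for H-Exo and 136 ± 6.92 for H+G-Exo. A second probe, 1 base longer, gave 30.7 ± 2.65, 22.7 ± 4.83 and 31.3 ± 3.81 for the same miRNA, so the longer probe gave the lower signal on every array. In miR-7080-3p (chr8:123130147-123130168, plus strand, in Cpne7) the extra base completes a run of 4 G. There the shorter probe gave 29.0 ± 3.66, 22.6 ± 4.52 and 25.8 ± 4.06, and the longer one 57.6 ± 4.67, 45.8 ± 3.51 and 58.6 ± 6.09.

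miR-7022-3p (chr4:148146937-148146958, minus strand, in Fbxo6, an F-box protein gene) gave 100.4 ± 6.69 for N-Exo, 77.0 ± 5.09 for H-Exo and 104 ± 5.71 for H+G-Exo. miR-7045-3p (chr6:125097066-125097086, plus strand, in Chd4, a chromatin remodeller gene) gave 95.5 ± 6.93, 55.1 ± 5.13 and 112 ± 4.02. miR-6937-3p (chr12:28679367-28679389, plus strand, in Adi1) gave 90.4 ± 5.02, 54.5 ± 4.09 and 105 ± 7.93. In each of these 3 H-Exo was the lowest array before scaling and H+G-Exo the highest. miR-7046-3p, in Rabac1, gave 75.1 ± 3.68, 52.0 ± 7.44 and 77.2 ± 4.33. miR-6897-3p, in Uggt1, a gene of glycoprotein folding control, gave 60.9 ± 3.85, 42.8 ± 4.50 and 60.1 ± 3.58. N-Exo and H+G-Exo differed by less than 1 SD over spots in both of these, and H-Exo was lower. Of the detected members, 33 for N-Exo, 21 for H-Exo and 31 for H+G-Exo read under 100.

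Detection went with the letters of the probe. Of the 44 members with a probe that holds GGGG, 31 (70.5%) were detected on at least 1 array and 20 on all 3. Of the 154 without such a probe, 10 (6.49%) were detected on any array and 2 on all 3. By probe, 55 of 84 with GGGG (65.5%) and 18 of 328 without (5.49%) were detected on any array. Of the 278 probes that start CTG 18.3% were detected, and of the 134 that do not 16.4%. Of the probes that start CTGGGG, 17 of 32 were detected. In the miRNAs, 27 of the 36 detected members with a RefSeq sequence held CCCC, against 20 of the 138 undetected ones (14.5%). This is not a separate observation, since the probes are complements of the miRNAs' 3′ ends.

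The 10 detected members without such a run were miR-6896-3p, miR-6940-3p, miR-6952-3p, miR-6963-3p, miR-6990-3p, miR-7005-3p, miR-7017-3p, miR-7033-3p, miR-7036b-3p and miR-7047-3p. The 5 members detected in H+G-Exo alone were miR-6940-3p, miR-6952-3p, miR-6990-3p, miR-7028-3p and miR-7036b-3p, of which only miR-7028-3p has a probe with GGGG.

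The higher detection of GGGG probes was not particular to the members. Of the 122 GGGG probes of miRNAs outside these numbers, 69.7% were detected for N-Exo, 54.9% for H-Exo and 74.6% for H+G-Exo, where the members' 84 gave 61.9%, 45.2% and 61.9%. For probes with a longest run of 2 G the shares were 24.8%, 19.7% and 22.1% in the other miRNAs and 1.91%, 0.637% and 2.55% in the members. The members' shares lay closer to those of the other miRNAs among the GGGG probes than among the probes with a run of 2 G. By miRNA, 49 of 63 others with a GGGG probe and 669 of 1620 without were detected on any array, 77.8% and 41.3%. Detection also differed by the GC content and the length of the probe. At a split by the members' median, 34 of 99 members with the higher probe GC and 7 of 99 with the lower were detected, and 5 of 86 with the longer probe and 36 of 112 with the shorter. How far each of these properties accounts for detection was not tested.

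**Figure D2:**
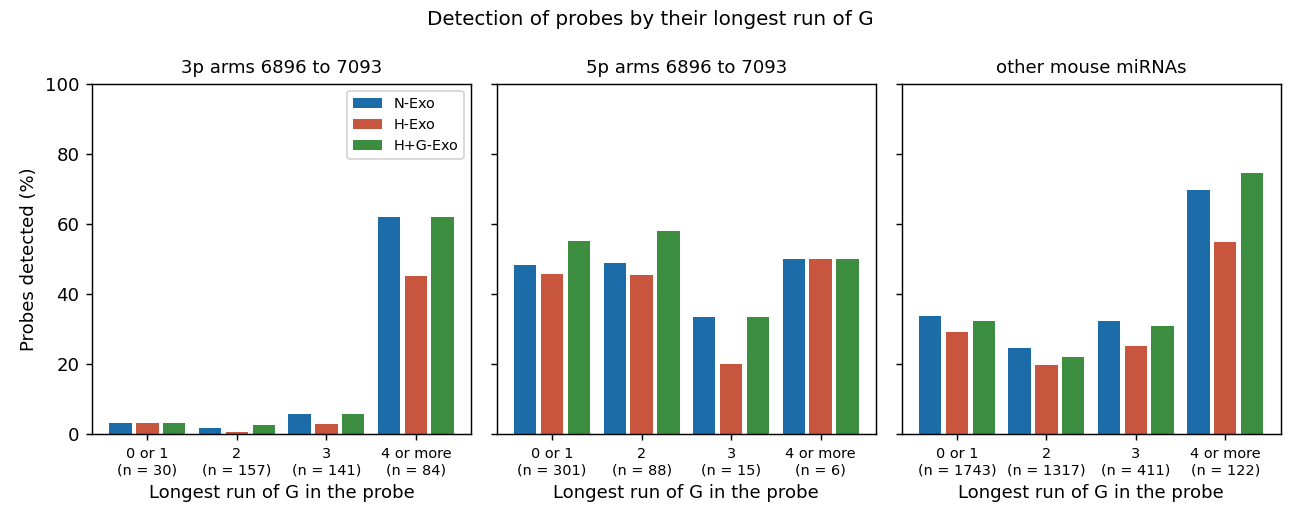
Percent of probes detected on each array by the longest run of G in the probe, for the 3p arms, the 5p arms of the same numbers and the other mouse miRNAs, with the number of probes under each set of bars. The 3p arms' bars are under 6% up to a run of 3 G and reach 45.2% to 61.9% at 4 or more; the other miRNAs are higher at 4 or more as well, and the 5p arms have only 6 such probes.

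Between arrays most measured members differed by nearly the same amount. Signals were scaled, each by the 75th percentile of its array among the probes that every array detected. This was 417.3 for N-Exo, 235.0 for H-Exo and 468.9 for H+G-Exo. A difference is the log2 ratio of scaled signals of the brightest probe, for miRNAs whose brightest probe was detected on both arrays. A miRNA was called where it differed at least 2-fold and by over 2 standard errors (SE) over spots. The 3 comparisons share arrays and are not independent.

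For hypoxia against normoxia, 22 members were measured on both arrays and 0 were called higher or lower, against 14.9% called of all 582 measured miRNAs (25 higher, 4.3%, and 62 lower). Their median log2 difference was 0.39, close to the 0.35 of all miRNAs, and their middle 50% ran from 0.31 to 0.45, where all miRNAs ran from -0.06 to 0.57. The sign came with the scaling. All 22 were above 0 after scaling and below 0 without it, at a median unscaled ratio of 0.738 (0.577 to 0.979). They were below 0 as well when scaled on the hybridization spike-ins. On the labelling spike-ins 13 were above 0 and 9 below, with a median of 0.04. Relative to the median of all miRNAs their own median was 0.04 higher. The smallest difference was 0.04 ± 0.04 (SE) in miR-7045-3p and the largest 0.80 ± 0.23 in miR-7005-3p.

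For GW4869 with hypoxia against hypoxia, 22 members were measured, 0 were called higher and 1 lower, against 32.9% called of all 566 miRNAs (6.18% higher and 26.7% lower). The median of the members was -0.53 and that of all miRNAs -0.43, so the members lay 0.11 below. Their middle 50% spanned 0.20 and that of all miRNAs 1.31. Without scaling 21 of the 22 were above 0 with a median ratio of 1.38, as were 21 and 17 on the hybridization and labelling spike-ins, and with the main scaling 1 was.

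The member called was miR-7005-3p, which lies at chr2:180179756-180179780 on the minus strand inside the span of Lama5, a laminin chain gene. Its unscaled signal was 88.4 ± 29.7 for N-Exo, 86.6 ± 32.6 for H-Exo and 54.4 ± 17.0 for H+G-Exo, with 10 spots on each. The spots scattered widely, from 51.1 to 124 for N-Exo, 39.0 to 131 for H-Exo and 30.9 to 76.9 for H+G-Exo, and overlapped between all arrays. The log2 difference was -1.67 ± 0.22 (SE), and -1.94 and -1.43 on its other probes. It fell short of 2-fold when scaled on the hybridization spike-ins (-0.77), on the labelling spike-ins (-0.99) or not at all (-0.67). Its probes have runs of 3 G at most. The 5p arm, miR-7005-5p, gave 1267 ± 130, 952 ± 102 and 1531 ± 154, with a difference of -0.31.

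For GW4869 with hypoxia against normoxia, 29 members were measured and 0 were called, against 46.0% called of all 606 miRNAs (19.3% higher and 26.7% lower). The members' middle 50% spanned 0.10 around a median of -0.14, where all miRNAs spanned 1.84 around -0.10. The sign of so small a median again hung on the scaling, with 27 of 29 members below 0 here and 27 above 0 on the labelling spike-ins. Of the 29, 28 lay within 0.5 of 0, a share of 96.6%, against 32.5% of all miRNAs and 39.0% of the 105 measured 5p arms. Before scaling the ratio ran from 0.616 to 1.17 with a median of 1.02, so these 2 arrays read the members at nearly the same brightness. The member beyond 0.5 was miR-7005-3p at -0.87 ± 0.21 (SE). miR-7069-3p, in Farsa, followed at -0.49 ± 0.07, with 42.0 ± 4.67 in N-Exo and 33.7 ± 4.78 in H+G-Exo.

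The narrow spread was shared in part by other miRNAs read by GGGG probes. In H+G-Exo against N-Exo, the 26 measured members whose value came from a GGGG probe spanned 0.09 in their middle 50% with 0 called. The 47 other miRNAs read by such a probe spanned 0.28 with 9 called (19.1%), and the 530 other miRNAs without one spanned 2.06 with 270 called (50.9%). The members' median signal in N-Exo was 40.1 in this comparison, beside 134 for all miRNAs measured in it. The part of brightness or probe letters in the spread was not tested.

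**Figure D3:**
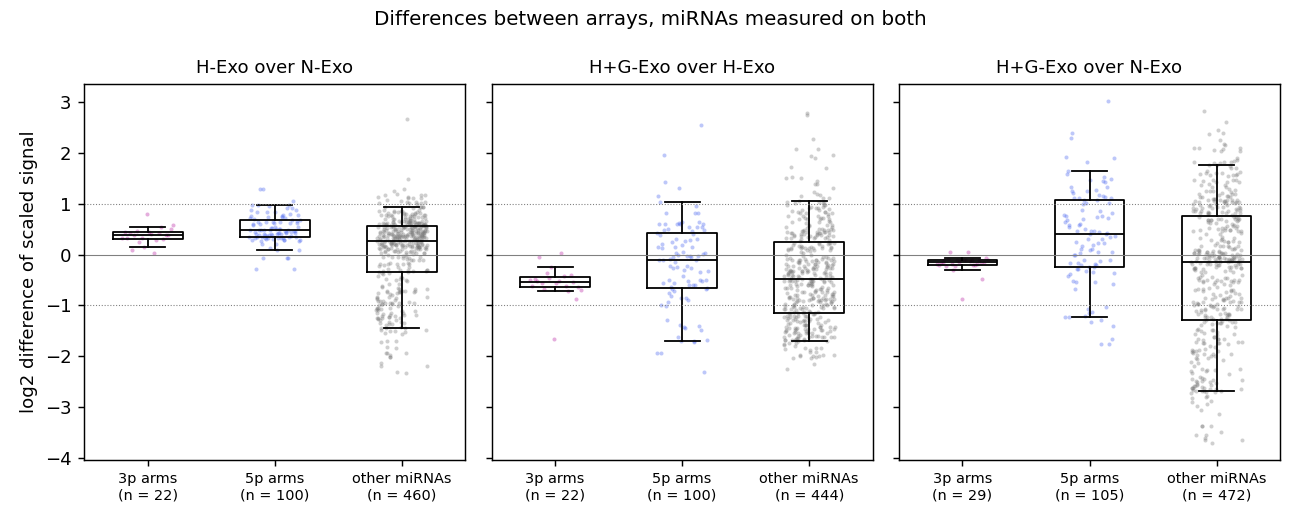
log2 differences of scaled signal in the 3 comparisons for the 3p arms, the 5p arms of the same numbers and the other mouse miRNAs measured on both arrays; each point is 1 miRNA, boxes show the median and middle 50%, whiskers run from the 5th to the 95th percentile, and dotted lines mark 2-fold. The 3p arms form a narrow band at 0.39, -0.53 and -0.14, with miR-7005-3p as the low point in the panels with H+G-Exo.

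The clearest difference in detection was that of miR-7036b-3p, at chr5:34574192-34574213 on the plus strand in Add1, a gene of the membrane skeleton protein adducin. It gave 13.1 ± 3.10 for N-Exo, 11.5 ± 4.74 for H-Exo and 68.7 ± 12.8 for H+G-Exo. Its H+G-Exo spots, 50.7 to 90.1, lay above all of its spots on the other arrays, which reached 17.9 and 19.4. A second probe read 13.5 ± 5.40, 11.6 ± 4.26 and 67.1 ± 4.31. Since it was not well above background in H-Exo and N-Exo, only a bound can be given, which takes as the other array's level its own signal or the dimmest detected probe there, whichever was higher. H+G-Exo was at least 2.24-fold higher than H-Exo and at least 3.25-fold higher than N-Exo, and under 6 other scalings these bounds ran from 2.83 to 4.48 and from 3.35 to 4.07. Its own 5p arm was not detected on any array, at 5.48 ± 3.49, 7.55 ± 3.12 and 11.8 ± 3.23.

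The other members found on 1 array stood nearer to the background. miR-6940-3p, in Cep170b, gave 6.94 ± 3.01, 5.01 ± 3.11 and 24.1 ± 3.05, with a bound of 1.14-fold over N-Exo. miR-6990-3p, in Esrra, the gene of a nuclear receptor of energy metabolism, gave 6.81 ± 3.53, 4.39 ± 3.77 and 19.7 ± 5.82, which allows no fold. miR-7028-3p gave 19.1 ± 3.55, 11.9 ± 3.03 and 25.4 ± 4.08 with a bound of 1.19 over N-Exo, and miR-6952-3p 13.2 ± 3.78, 10.8 ± 4.11 and 22.1 ± 6.10 with a bound of 1.05. Among those found in N-Exo alone, miR-6896-3p, in Dst, gave 23.3 ± 4.36, 16.9 ± 4.44 and 10.9 ± 3.35 and its fall from N-Exo to H+G-Exo was at least 1.49-fold. After the main scaling, miR-6963-3p, in the integrin gene Itga5, miR-7017-3p, miR-7003-3p and miR-7087-3p had bounds of 1.31-, 1.25-, 1.22- and 1.18-fold lower. Before scaling they read 20.6 ± 4.48, 21.4 ± 4.44, 19.2 ± 2.56 and 19.1 ± 3.68 in N-Exo. In H+G-Exo they read 16.1 ± 3.67, 19.3 ± 3.14, 16.8 ± 4.02 and 18.2 ± 3.26, so these falls came in part from the scaling. The bounds in this paragraph were computed with the main scaling only. None of the 12 members measured in N-Exo but not in H-Exo gave a bound above 1.

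The arms were detected in the following combinations. Of the 198 hairpins with both arms on the array, 21 showed both in N-Exo, 15 the 3p arm alone, 87 the 5p arm alone and 75 neither. In H-Exo these were 10, 12, 91 and 85, and in H+G-Exo 23, 13, 94 and 68. Where the 3p arm was detected, the 5p arm was too in 58.3%, 45.5% and 63.9% of hairpins, near the share of all 5p arms detected on these arrays (54.5%, 51.0% and 59.0%). With detection required of all spots, 11, 7 and 17 hairpins showed both arms, and by the software's call 35, 26 and 41. The 8 hairpins miR-6897, miR-6923, miR-6924, miR-6943, miR-6976, miR-7055, miR-7062 and miR-7067 showed the 3p arm on all 3 arrays and the 5p arm on none. For miR-6976 the 5p arm gave 3.80 ± 4.55, 3.82 ± 2.43 and 1.52 ± 4.05.

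**Figure D4:**
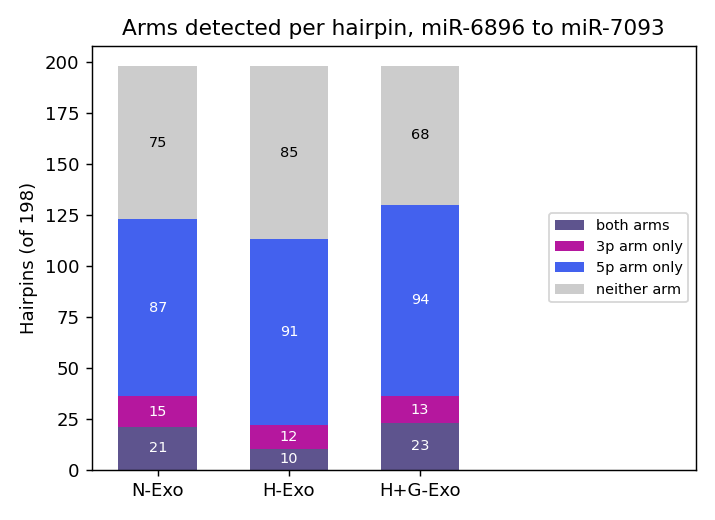
Number of the 198 hairpins with both arms, only the 3p arm, only the 5p arm or neither arm detected on each array. The 5p arm alone is the most frequent pattern, at 87, 91 and 94 hairpins, and the 3p arm alone is seen in 15, 12 and 13.

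Where both arms were measured, the 5p arms ranged more widely than the 3p arms in H+G-Exo against N-Exo. There 15 hairpins had both, with 0 of the 3p arms called and 7 of the 5p arms called higher and 1 lower. Of all 606 measured miRNAs 46.0% were called in this comparison. The 3p arms ran from -0.87 to 0.06 and the 5p arms from -1.41 to 2.30. In miR-6934, within Tbc1d16, the 3p arm gave 50.3 ± 2.07 in N-Exo and 53.1 ± 3.86 in H+G-Exo, a difference of -0.09 after scaling. Its 5p arm gave 67.3 ± 9.82 and 372 ± 32.0, a difference of 2.30. In miR-7046 the differences were -0.13 and 1.53, in miR-6937 0.05 and 1.33, in miR-7052 -0.20 and 1.33 and in miR-7047 -0.10 and 1.13. In miR-7084 they were -0.06 and -1.41, the opposite direction for the 5p arm. The 3p arm read 19.7 in N-Exo and 20.7 in H+G-Exo for miR-7047, and 26.1 and 28.2 for miR-7084. The dimmest detected probes of these arrays read 18.8 and 17.6. The 5p arms read 8258 and 20266 for miR-7047, and 14082 and 5934 for miR-7084. The part of brightness in the difference between the arms was not tested. Over all measured 5p arms of these numbers, 29 were called higher and 13 lower of 105, a share of 40% and below that of all miRNAs. In H-Exo against N-Exo 10 hairpins had both arms measured and 0 calls fell on either arm. The 3p arms ran from 0.04 to 0.80 and the 5p arms from 0.34 to 0.98. Of 100 measured 5p arms 3 were called higher and 0 lower, beside 14.9% called of all 582 miRNAs. In H+G-Exo against H-Exo 10 hairpins had both, with 1 of the 3p arms called lower and 1 of the 5p arms called higher. The 3p arms ran from -1.67 to 0.03 and the 5p arms from -0.59 to 1.96. Of 100 measured 5p arms 6 were called higher and 16 lower, beside 32.9% called of all 566 miRNAs.

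The better studied mirtrons miR-877, miR-1224, miR-702 and miR-1981 were read for comparison. Of their 8 arms, 4 were detected on each array, miR-877-5p, miR-877-3p, miR-1224-5p and miR-702-3p. In H-Exo against N-Exo, the 3p arms differed by 0.56 (miR-877-3p) and 0.42 (miR-702-3p), in H+G-Exo against H-Exo by -0.82 and -0.52, and in H+G-Exo against N-Exo by -0.26 and -0.10. None of these 6 differences was called, and the members' medians were 0.39, -0.53 and -0.14. The 5p arm miR-1224-5p differed by 1.01, -0.007 and 1.01. It was called higher in both comparisons with N-Exo, each time barely past 2-fold. Its scaled signals were 210, 424 and 422, and those of miR-877-5p, the next brightest arm, 0.33, 0.37 and 0.35. Before scaling the 4 detected arms, nearly all miR-1224-5p, summed to 88000 (N-Exo), 99899 (H-Exo) and 198318 (H+G-Exo). Most of the rise of miR-1224-5p under hypoxia alone thus came with the scaling, while that with GW4869 was present without it. miR-877-5p differed by 0.16, -0.07 and 0.09, with no call.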

How the data were processed

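miRNA was measured on 1 one-colour Agilent array per group. Per the file headers, the authors quantified the deposited spot intensity with Agilent Feature Extraction 10.7.1.1, which had subtracted background. The labels' protocols name a cRNA and a cDNA kit, unusual for a miRNA array, so the labelling is uncertain. The members and lists were chosen with earlier results of these data known. Outlier spots were left out, spots of a probe averaged and each array scaled by its 75th percentile. A miRNA took its brightest probe. With 1 array per group nothing was tested, and the number of arrays limits precision. The rules were tested on simulated data, with changes larger than 2-fold in miRNAs detected on all arrays. Spot noise had the same setting for every probe. Calls near 2-fold or with widely scattered spots were thus not tested. The members named were those detected on all arrays with the highest mean log2 signal (up to 15 considered), the largest differences and bounds, members whose probes disagreed, and others singled out after their values were seen. The authors' deposited log2 value table and the normexp correction (limma 3.58.1) were alternatives. Python 3.11.15, pandas 2.3.3 and R 4.3.3 were used. Coordinates are RefSeq's.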

Additional observations from a re-analysis of the deposited data

How the results depend on the processing

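No paired analysis was possible because each group was 1 array. Of the 111 alternative counts computed, 89 lay within 1.5 times the reported one and 22 did not. Detected members in H-Exo were 36 with at least 1 spot required and 42 by the software's call, which gave 56 in H+G-Exo. Hairpins with both arms were 11 in N-Exo with all spots required, and 35, 26 and 41 by the software's call. At 1.5-fold, 2 of 22 members were higher in H-Exo than N-Exo, beside 141 of all 582 measured miRNAs. In H+G-Exo 8 of 22 members were lower than in H-Exo, beside 240 of all 566. Against N-Exo 1 of 29 members was lower in H+G-Exo, beside 201 of all 606. Without scaling 1 was higher and 0 lower in H+G-Exo than H-Exo, where all miRNAs gave 185 and 7. With either spike-in scaling 0 were lower, where all miRNAs gave 16 on the hybridization and 36 on the labelling spike-ins. The software's totals gave 2 higher and 1 lower (H-Exo over N-Exo), 3 lower (H+G-Exo over H-Exo) and 4 higher (H+G-Exo over N-Exo), over more members since that call detects more. The deposited table gave 4 higher, 5 lower, and 4 higher with 2 lower. For the software's totals and the deposited table no count over all miRNAs was made. The cause of these changes was not tested otherwise. No replicate could be left out, and members near background are limited by signal.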

Other observations

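The software's total per miRNA exceeded the sum of its own probes' totals by over 1% for 8 members on at least 1 array, and lay below it by over 1% for 4. The excess was largest in miR-7049-3p. miR-7036a-3p followed, with totals of 382 in N-Exo and 389 in H+G-Exo against sums of 3.62 and 3.33. In H-Exo the total of miR-7072-3p was 79.6 against 6.63. For miR-7049-3p the total was 668.0 in N-Exo, 0.1 in H-Exo, the value given where a miRNA is not detected, and 1985 in H+G-Exo. The mean signal of its value probe was 12.9 ± 6.54, 10.4 ± 4.06 and 12.8 ± 4.29, and it was not detected on any array here. The total of miR-7048-5p, a 5p arm with a neighbouring number, was 664.4 in N-Exo and 1981 in H+G-Exo. The difference between the totals, 3.59 and 3.60, lay within 0.00084 and 0.00624 of the total of 1 of the 2 probes of miR-7049-3p. In the authors' deposited table miR-7049-3p had log2 values of 0.11 in N-Exo and 0.13 in H+G-Exo and the lowest value of its column in H-Exo, so the large totals are not in that table.

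Members that disagreed between their own probes in the sign of a difference were few. In H+G-Exo against H-Exo this was 1 of 20 members with several measured probes, miR-7045-3p, at 0.03 and -0.14. In H+G-Exo against N-Exo it was 3 of 23, miR-6924-3p at -0.16 and 0.03, miR-7033-3p at 0.02 and -0.11, and miR-7046-3p at 0.01 and -0.13. In H-Exo against N-Exo it was 0 of 20.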
